A study of Mus musculus with 23 samples.

Results

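The genes described here are 6 metabotropic glutamate receptors, Grm2, Grm3, Grm4, Grm5, Grm7 and Grm8, taken by symbol from the 39017 genes in both deposited expression tables. Hippocampal poly(A) RNA was sequenced from mice labelled wild type (WT) or Nrsn2 knockout, either undisturbed controls or animals taken through chronic social defeat stress (CSDS), and the stated purpose was to look at stress-induced expression changes in both genotypes. In CSDS a mouse was put for 5 min a day into the cage of a new aggressive CD-1 mouse, and was kept behind a perforated divider between the 10 daily sessions. Crossing genotype label and treatment gives 4 groups of 5 libraries, called WT control and WT CSDS, and knockout-labelled control and CSDS. The sources used here do not give the knockout allele or the strain, age and sex of the animals. They also do not say that each library is a separate animal, so the p-values speak only of the spread among libraries. A further 3 libraries carry a title and a treatment field that contradict each other and were left out.

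Metabotropic glutamate receptors are G protein-coupled receptors that adjust synaptic strength after glutamate release. Group I, to which Grm5 belongs, acts mostly at the edge of the postsynaptic density through Gq, phospholipase C and calcium release, and is tied to that density by Homer and Shank proteins. Group II (Grm2 and Grm3) and group III (Grm4, Grm7 and Grm8) couple to Gi/o, lower cyclic AMP and mostly restrain transmitter release. Grm2 is known from the mossy fibres of dentate granule cells, Grm3 from astrocytes as well as neurons, and Grm7 from the active zone of hippocampal terminals. The family's other members were not analysed here.

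The libraries held an estimated 25.8 to 55.6 M reads (median 45.1 M). Nrsn2 itself was not lower in the knockout label, at 32.7 ± 2.53 RPKM (SD, n = 10) against 29.4 ± 2.36 (n = 10) in WT (2-sided permutation test, p = 0.0078), so every comparison of genotypes is one of labels. RPKM are reads per kilobase of a gene's exons, scaled to library size. Control 10 of each genotype stood apart, with 56.5 and 48.2 RPKM of the female-specific RNA Xist, which was at most 0.0618 in the other libraries of the 4 groups. No CSDS library had that pattern. The hippocampal markers Prox1 of dentate granule cells (11.3 to 12.9 RPKM over the group means) and Wfs1 of CA1 (30.8 to 38.2) were present in all groups, while Gabra6, which defines cerebellar granule cells, had a mean below 0.05 RPKM.

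All 6 receptor genes were above 0 in all 23 libraries and passed the filter on low values (mean of at least 0.5 RPKM) in every fit. In mm10 coordinates, Grm5 (ENSMUSG00000049583) lies on the plus strand at chr7:87584168-88134907. The group II genes are Grm2 (ENSMUSG00000023192, chr9:106643095-106656082, minus strand) and Grm3 (ENSMUSG00000003974, chr5:9485541-9725170, minus strand). The group III genes are Grm4 (ENSMUSG00000063239, chr17:27422387-27521403, minus strand), Grm7 (ENSMUSG00000056755, chr6:110645581-111567230, plus strand) and Grm8 (ENSMUSG00000024211, chr6:27275119-28135178, minus strand). They are very unequal in size, from 13.0 kb for Grm2 to 921.6 kb for Grm7. Exons of Grm2 overlap the antisense gene Gm28111 and exons of Grm7 overlap the antisense gene Gm20387. The libraries do not keep strand, so reads from these pairs cannot be told apart. Gm20387 was listed at 1.69 ± 0.145 RPKM in WT controls and 1.65 ± 0.261 in WT CSDS (SD, n = 5), well under Grm7.

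RefSeq promoter windows (GRCm38.p6, from 250 bases before to 50 after a transcript start) matched 4 of the 6 members, in 7 windows. The sequences given here belong to Grm7 and to the outermost start of Grm8, the members with a window whose level passed a CSDS test, Grm7 in WT and Grm8 in the knockout label. The stretches are the 250 bases upstream of the start, on the gene's own strand, at chr6:110645262-110645511 (plus) for Grm7 and chr6:28135147-28135396 (minus) for Grm8. Capitals mark a match to one of 4 activity-linked motifs searched on both strands: the cyclic AMP response element TGACGTCA, its shorter form TGACG (which the first contains), the AP-1 motif TGANTCA and the Egr motif GCGNGGGCG.
Grm7: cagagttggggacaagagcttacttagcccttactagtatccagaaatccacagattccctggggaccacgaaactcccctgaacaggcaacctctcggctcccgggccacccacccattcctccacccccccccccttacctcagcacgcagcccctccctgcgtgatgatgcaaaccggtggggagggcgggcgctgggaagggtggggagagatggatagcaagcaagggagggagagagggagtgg
Grm8: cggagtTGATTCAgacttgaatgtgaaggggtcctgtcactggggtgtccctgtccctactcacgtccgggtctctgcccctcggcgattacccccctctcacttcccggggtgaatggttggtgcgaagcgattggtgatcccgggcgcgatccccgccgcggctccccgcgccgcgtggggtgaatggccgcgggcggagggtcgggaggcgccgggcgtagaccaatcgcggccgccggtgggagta
The Grm7 stretch is 62.0% G or C and holds none of the 4 motifs. The Grm8 stretch is 68.4% G or C and holds 1 AP-1 match, TGATTCA, at positions -244 to -238 counted from the start. Among the other windows, an inner start of Grm8 (chr6, position 28134421) has TGACG at -24 to -20, and Grm3 has GCGGGGGCG across its start. Of 32851 mouse promoter windows of the same length, 1.79% hold TGACGTCA, 20.8% TGACG, 7.81% the AP-1 motif and 5.55% the Egr motif, and a match is only a match of letters.

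The 6 genes fell into 3 tiers of expression. Grm5 led with 26.6 to 37.7 RPKM over the 20 libraries. Grm2 (12.1 to 17.4), Grm3 (12.1 to 15.0) and Grm7 (8.26 to 10.8) formed the middle tier. Grm4 (1.91 to 3.20) and Grm8 (0.879 to 1.47) were lowest. RPKM is a level per length of exon, so these levels can be set side by side. The order from Grm5 through Grm2, Grm3, Grm7 and Grm4 to Grm8 was found in 15 of the 20 libraries, and in the other 5 Grm3 stood above Grm2. The ratio of Grm2 to Grm3 within a library was 0.965 to 1.27 in WT controls and 0.976 to 1.22 in WT CSDS. It was 0.861 to 1.07 in knockout-labelled controls and 0.996 to 1.39 in knockout-labelled CSDS. The difference between these neighbours was not tested. All other neighbours kept their order in each of the 20 libraries. Grm5 made up 45.0% ± 0.792 (SD, n = 5) of the summed RPKM of the 6 genes in WT controls and 42.6% ± 1.65 in knockout-labelled CSDS. Relative spread over the 20 libraries was widest for Grm4 (coefficient of variation 15.7%) and Grm8 (15.0%), the genes with the fewest reads (an estimated 302 to 920 and 231 to 688 per library), and narrowest for Grm3 (6.75%).

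**Figure D1:**
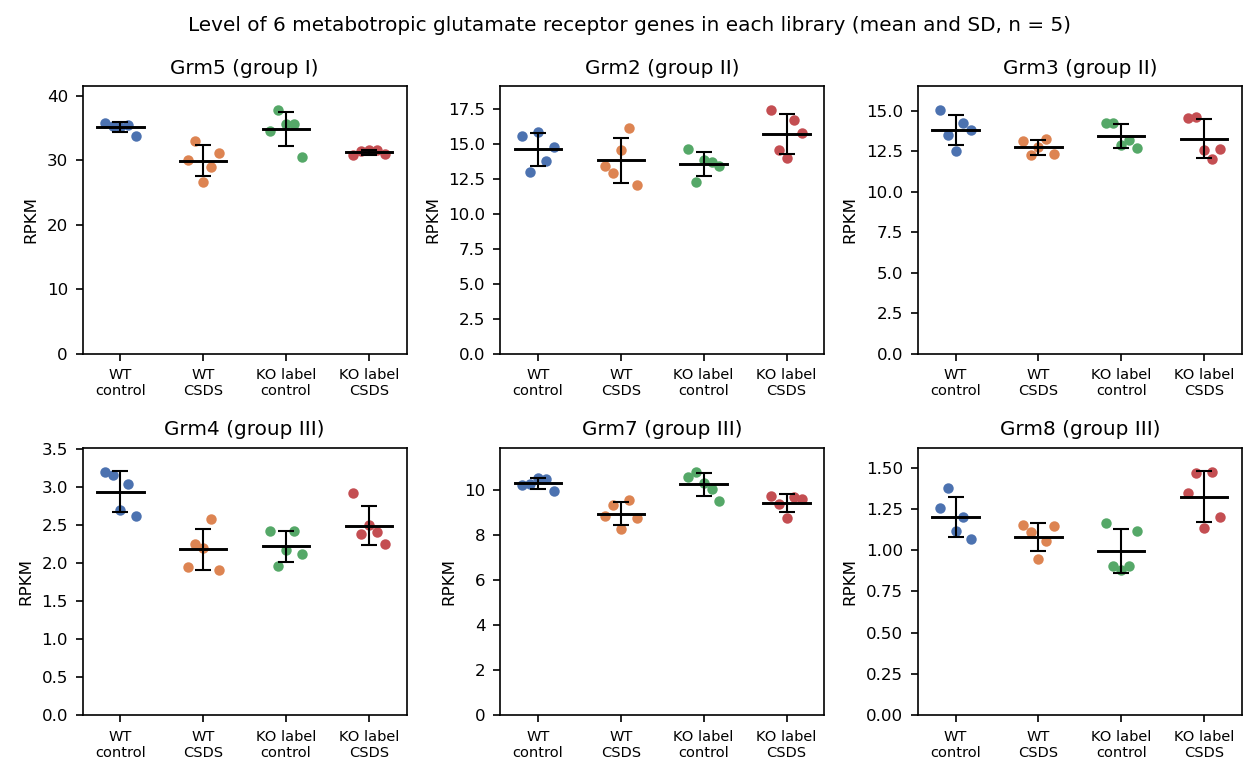
Level of each receptor gene in RPKM (vertical axes start at 0) in the 4 groups; points are libraries, the long line is the mean and the bar 1 SD, n = 5. In WT the CSDS points lie below all control points for Grm5, Grm7 and Grm4, and 4 of the 5 knockout-labelled CSDS points for Grm8 lie above all 5 points of their controls. The share of all genes that separate in this way was not counted.

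Social defeat was compared with control in WT first. Grm5, the postsynaptic group I receptor, and the presynaptic group III receptors Grm4 and Grm7 were lower after CSDS, by 14.7%, 25.9% and 13.0% of the control mean. Grm2, Grm3 and Grm8 did not pass the test. Calls are from limma on log2(RPKM + 0.5), 2-sided, at a Benjamini-Hochberg adjusted p of 0.05 over all genes. So 3 of 6 members were called lower and 0 higher, where 12.5% of the 18274 genes tested were called lower and 9.88% higher. The median log2 fold change was -0.15 over the 6 members and 0.00 over all genes. In bulk tissue, fewer cells of a type and less RNA per cell cannot be told apart.

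Grm5 stood at 35.8, 35.4, 35.1, 35.4 and 33.7 RPKM in WT controls 6 to 10 and at 30.0, 33.0, 26.6, 28.9 and 31.2 RPKM in WT CSDS libraries 1 to 5. All 5 CSDS libraries were below the lowest control, and they were more spread out than the controls. The share of all genes whose groups do not overlap was not counted in any comparison, so such separation is only described. The log2 fold change was -0.23 ± 0.05 (SE; limma, adjusted p = 0.00858). Grm7, whose low affinity for glutamate makes it a receptor of strongly active terminals, stood at 10.2, 10.3, 10.5, 10.5 and 9.96 RPKM in WT controls and at 8.84, 9.34, 8.26, 9.57 and 8.77 RPKM after CSDS. Again no CSDS library reached the lowest control. Its log2 fold change was -0.19 ± 0.04 (limma, adjusted p = 0.0062).

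Grm4 had the widest change of the 6 in WT. It stood at 3.20, 3.15, 2.69, 3.04 and 2.61 RPKM in controls and 1.95, 2.25, 2.20, 2.59 and 1.91 RPKM after CSDS. The groups did not overlap, but only narrowly, since CSDS library 4 came close to control 10. The log2 fold change was -0.36 ± 0.08 (limma, adjusted p = 0.00864). Without control 10 the 3 genes were still called, at -0.40 for Grm4, -0.24 for Grm5 and -0.20 for Grm7 (limma, adjusted p = 0.00813, 0.0117 and 0.00848). Counting the library of contradictory label as CSDS ended the calls of Grm4 (adjusted p = 0.0647) and Grm5 (0.0562), and Grm7 kept its call (0.0409).

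The remaining members in WT did not pass the test. Grm3 was at 15.0, 13.5, 12.5, 14.3 and 13.8 RPKM in controls and 13.1, 12.3, 12.8, 13.3 and 12.4 RPKM after CSDS, with overlapping groups and a log2 fold change of -0.11 ± 0.04 (95% interval -0.21 to -0.01; limma, unadjusted p = 0.0305, adjusted p = 0.0983). Without WT control 8, the lowest control, it was called lower (-0.14, adjusted p = 0.0269). The 10 astrocyte markers summed to 469 to 527 RPKM in WT controls and 507 to 584 after CSDS, with 3 called higher (Aldh1l1, Aldoc, Slc4a4) and 1 lower (Aqp4). Their part in the Grm3 value was not tested. Grm2 averaged 14.6 ± 1.21 RPKM in controls and 13.8 ± 1.60 after CSDS (SD, n = 5), and Grm8 1.20 ± 0.121 and 1.08 ± 0.0855. The log2 fold changes were -0.08 (95% interval -0.25 to 0.09) for Grm2 and -0.11 (-0.25 to 0.04) for Grm8, which leaves room for changes as large as that of Grm7.

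In the libraries labelled knockout, CSDS gave another set of calls. Grm8, a presynaptic group III receptor, was called higher, by 33.1% of the control mean, and no member was called lower. That is 1 of 6 higher and 0 of 6 lower, where 6.17% of the 18259 genes tested were called higher and 8.88% lower. With each library centred on its median the share of called genes that were higher moved from 41.0% to 52.2%. The median log2 fold change was 0.06 over the members and -0.01 over all genes.

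Grm8 stood at 1.17, 0.905, 0.879, 0.904 and 1.12 RPKM in knockout-labelled controls 6 to 10 and at 1.35, 1.47, 1.13, 1.47 and 1.20 RPKM in CSDS libraries 1 to 5. CSDS library 3 fell within the range of the controls and the other 4 lay above it. The log2 fold change was 0.29 ± 0.08 (limma, adjusted p = 0.0366). The call is close to the threshold. It was lost without each of controls 7, 8 and 9 and CSDS libraries 1, 2 and 4 (adjusted p from 0.0697 to 0.0901), without the filter on low values (0.0625) and with the contradictory libraries counted as CSDS (0.164), and it was kept without control 10 (0.32, adjusted p = 0.0286).

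Grm2, the group II receptor of mossy fibre terminals, had its highest mean in this group. It stood at 14.6, 12.3, 13.8, 13.8 and 13.5 RPKM in knockout-labelled controls and at 17.4, 14.6, 14.0, 16.7 and 15.8 RPKM after CSDS. Only 3 CSDS libraries exceeded the highest control, and the log2 fold change of 0.20 ± 0.06 did not pass the test (limma, adjusted p = 0.0558). It was called higher with libraries centred on their medians (adjusted p = 0.0397), without CSDS library 3 (0.0304) and with the contradictory libraries as controls (0.0458). Its adjusted p reached 0.125 with other single libraries left out and 0.154 over the other settings (limma). The 8 dentate granule cell markers summed to 90.1 to 103 RPKM in those controls and 80.6 to 97.1 RPKM after CSDS, with 1 called lower (Stxbp6).

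Grm5 and Grm7 were below their controls on average here too, without passing the test. Grm5 stood at 34.6, 37.7, 35.7, 35.6 and 30.4 RPKM in controls and at 30.8, 31.4, 31.5, 31.6 and 30.9 RPKM after CSDS. The CSDS libraries were tightly grouped, and control 10 lay below all of them while the other 4 controls lay above. The log2 fold change was -0.15 ± 0.05 (limma, adjusted p = 0.0602). Grm7 was at 10.6, 10.8, 10.3, 10.0 and 9.50 RPKM in controls and 9.72, 9.37, 8.75, 9.70 and 9.59 RPKM after CSDS, and once more control 10 was the lowest control. Its log2 fold change was -0.11 ± 0.04 (limma, adjusted p = 0.0855). Without control 10 both were called lower, Grm5 at -0.20 (adjusted p = 0.00205) and Grm7 at -0.14 (adjusted p = 0.0263). With other single libraries left out the adjusted p reached 0.123 for Grm5 and 0.169 for Grm7. Over the other settings it ran from 0.00632 to 0.369 for Grm5 and from 0.0279 to 0.539 for Grm7 (limma).

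Grm4 was not lower after CSDS in the knockout label, with 2.42, 1.96, 2.18, 2.42 and 2.12 RPKM in controls and 2.92, 2.39, 2.50, 2.40 and 2.25 RPKM after CSDS. These groups overlapped, and the log2 fold change of 0.14 ± 0.07 did not pass the test (limma, adjusted p = 0.212). Grm3 averaged 13.5 ± 0.743 RPKM in controls and 13.3 ± 1.22 after CSDS (SD, n = 5), a log2 fold change of -0.02 (95% interval -0.15 to 0.11). In both tables the authors' control mean includes the contradictory libraries. The authors' deposited table for the knockout label gives false discovery rates of 0.000431 for Grm8, 0.0229 for Grm2, 0.0238 for Grm5 and 0.0516 for Grm7, with the same directions. For WT the authors' deposited table gives 0.000165 for Grm4, 0.000305 for Grm5 and 0.0016 for Grm7.

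**Figure D2:**
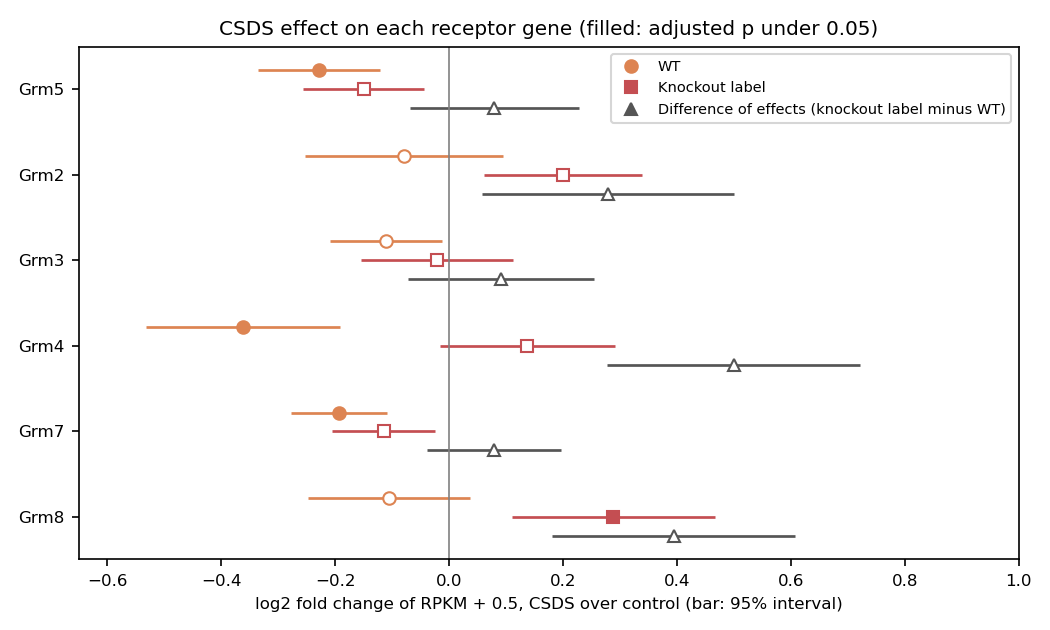
Log2 fold change of RPKM + 0.5 after CSDS (horizontal axis) for each gene, in WT (circles), in the knockout label (squares), and the difference between them (triangles); bars are 95% intervals and filled symbols passed the test. Filled symbols are Grm5, Grm4 and Grm7 in WT and Grm8 in the knockout label, and no triangle is filled.

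Whether CSDS acted differently in the genotypes was tested as the difference of its effects (knockout label minus WT). No member passed, 0 of 6, where 0.148% of the 18263 genes tested were called in either direction, 27 genes in all and 2092 at an unadjusted p under 0.05. Grm4 came nearest, with a difference of 0.50 ± 0.11 (95% interval 0.28 to 0.72; limma, unadjusted p = 0.000157, adjusted p = 0.06). Leaving out WT control 8, WT control 10 or WT CSDS library 4 brought it under the threshold (adjusted p = 0.0461, 0.0212 and 0.0309). Over all single libraries left out its adjusted p ran from 0.0212 to 0.13, and over the other settings from 0.0323 to 0.414 (limma). Grm8 followed with 0.39 ± 0.10 (limma, adjusted p = 0.122) and Grm2 with 0.28 ± 0.11 (adjusted p = 0.299). For Grm5 the difference was 0.08 (95% interval -0.07 to 0.23) and for Grm7 0.08 (-0.04 to 0.20). Grm5 and Grm7 were thus not shown to respond differently by genotype, although each was called in only one. Leaving out control 10 of both genotypes brought Grm4 (0.52, adjusted p = 0.0394) and Grm8 (0.45, adjusted p = 0.0482) under the threshold. For Grm8 the adjusted p reached 0.231 over single libraries left out and 0.452 over the other settings (limma).

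Among controls, Grm4 was lower in the knockout label than in WT. The 5 knockout-labelled values listed above all lay under the lowest WT control, and the mean was 2.22 ± 0.200 RPKM against 2.94 ± 0.269 (SD, n = 5), a log2 fold change of -0.34 ± 0.07 (limma, adjusted p = 0.0166). This was the 1 member called lower, where 1.50% of genes were called lower. The same 5 WT controls also entered the CSDS comparison in WT and the test of the difference, so the Grm4 results are not separate evidence. Mean Grm4 was highest in that group, with 2.18 RPKM in WT CSDS and 2.49 in knockout-labelled CSDS. With libraries centred on their medians the share of called genes that were higher fell from 62.0% to 51.0%. The Grm4 call was kept there and without control 10 of both genotypes (-0.36, adjusted p = 0.0235), but lost with the library number as a block (adjusted p = 0.0873). Grm8 was at 0.994 ± 0.136 RPKM against 1.20 ± 0.121 (log2 fold change -0.19 ± 0.07, adjusted p = 0.152). Grm5 (34.8 ± 2.69 against 35.1 ± 0.774 RPKM) and Grm7 (10.3 ± 0.512 against 10.3 ± 0.234) had nearly equal means, with 95% intervals of the log2 fold change of -0.12 to 0.09 and -0.09 to 0.08.

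After CSDS no member passed the test between the genotype labels, 0 of 6, where 2.24% of genes were called in either direction (409 genes; 2919 at an unadjusted p under 0.05). Grm8 was at 1.32 ± 0.154 RPKM in the knockout label and 1.08 ± 0.0855 in WT (log2 fold change 0.20 ± 0.07, 95% interval 0.05 to 0.35; limma, adjusted p = 0.158). Grm2 was at 15.7 ± 1.42 against 13.8 ± 1.60 (0.18 ± 0.07, interval 0.02 to 0.34, adjusted p = 0.237) and Grm4 at 2.49 ± 0.255 against 2.18 ± 0.271 (0.16 ± 0.07, interval 0.004 to 0.32, adjusted p = 0.301). The CSDS libraries of both labels also serve the comparisons above, so these values are not separate evidence. The summed RPKM of the 6 genes came to 78.0 ± 1.95 for WT controls and 68.7 ± 2.51 for WT CSDS, and to 75.3 ± 3.48 and 73.5 ± 2.28 for the matching knockout-labelled groups.

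The members were compared for how they varied across libraries. Grm5 and Grm7 had the highest correlation of any pair, r = 0.852 over the 20 libraries and 0.576 after subtracting each group's mean, though one acts postsynaptically and the other presynaptically. On the same measures Grm4 had r = 0.477 and 0.464 with Grm2, 0.483 and 0.384 with Grm3, and 0.439 and 0.189 with Grm8. The group II pair of Grm2 and Grm3 had 0.139 and 0.116. Of 15964 genes with a mean of at least 1 RPKM, the patterns most like Grm5 were those of Reps2 (r = 0.959), Aff4 (0.955) and Rock2 (0.942). For Grm7 they were Slc35e1 (0.94), Kif3b (0.927) and Ncoa7 (0.927). The closest to Grm4 were Pitpnm3 (0.878), Rtl5 (0.858) and Kazn (0.858), and to Grm8 the unnamed gene model Gm3411 (0.904), Plcb4 (0.845) and Dpp10 (0.837). For the group II genes they were R3hdm2 (0.846), Hs6st1 (0.835) and Ttc9 (0.807) with Grm2, and Dennd5a (0.805), Plekhb1 (0.799) and Rab31 (0.792) with Grm3. These correlations describe 20 libraries that share groups and depth.

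Genes that act with the receptors were read from 6 lists, 91 genes in all, each measured and tested. In WT 4 were higher (4.4%, against 9.88% of all genes) and 20 lower (22%, against 12.5%) after CSDS, with a median log2 fold change of -0.04. In the knockout label 7 were higher (7.69%, against 6.17%) and 4 lower (4.4%, against 8.88%), with a median of 0.00. The count of lower genes in WT was above the share over all genes, and the other counts were near or below it. None of the 91 passed the test of the difference between genotypes, which is near the 0.148% called over all genes.

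Scaffolds and partners of group I held the widest change. In WT 4 of 13 were lower (30.8%, against 12.5% of all genes) and 0 higher (against 9.88%). In the knockout label 2 were lower (15.4%, against 8.88%) and 1 higher (7.69%, against 6.17%). The higher gene was Agap2, a GTPase that enhances phosphoinositide kinase activity, named after its value was seen. Homer1, which links Grm5 to the calcium release channels and has a short activity-induced form, was at 13.3 ± 1.13 RPKM in WT controls and 7.35 ± 0.720 after CSDS, and at 11.3 ± 0.861 and 7.31 ± 0.290 in the knockout label (SD, n = 5). The log2 fold changes were -0.81 (limma, adjusted p = 0.000216) and -0.59 (adjusted p = 0.000252). The postsynaptic scaffolds Shank2 (-0.14, adjusted p = 0.00402) and Shank3 (-0.18, adjusted p = 0.0119) were lower in WT. Fmr1, the translational regulator tied to group I signalling, was lower in both, at -0.18 (adjusted p = 0.0097) and -0.22 (adjusted p = 0.02).

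In the Gq and phospholipase C arm that Grm5 drives, 2 of 17 genes were lower in WT, 11.8% where all genes gave 12.5%. They were Itpr1, the calcium release channel of the endoplasmic reticulum (57.96 ± 2.94 to 51.4 ± 1.32 RPKM; -0.17, limma, adjusted p = 0.0084), and Gnaq, the G protein subunit itself (-0.14, adjusted p = 0.0156). In the knockout label 2 of 17 were higher (11.8%, against 6.17%). Plcb4, a phospholipase C, stood at 2.88 ± 0.202 RPKM in controls and 3.60 ± 0.257 after CSDS (0.28, adjusted p = 0.00972), and Dgkz, which removes the diacylglycerol that the enzyme makes, rose by 0.14 (adjusted p = 0.0202).

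For the Gi/o arm of groups II and III, 6 of 25 genes were lower (24.0%, against 12.5% of all genes) and 3 higher (12%, near the 9.88% of all genes) in WT. In the knockout label 1 was lower (4.0%, against 8.88%) and 2 higher (8.0%, near the 6.17% of all genes). Among those lower in WT were Rgs8 (-0.15, limma, adjusted p = 0.00404), which speeds the shut-off of G proteins, the potassium channel subunit Kcnj6 (-0.26, adjusted p = 0.0058) and the inhibitory subunit Gnai1 (-0.19, adjusted p = 0.0078). Another G protein regulator, Rgs7, was higher in WT (0.14, limma, adjusted p = 0.00549), as were the gamma subunits Gng3 and Gng7, named after their values were seen. In the knockout label Gnai1 was again lower (-0.16, adjusted p = 0.0168), and the gamma subunits Gng3 (0.20) and Gng4 (0.40), named in the same way, were higher.

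Binding partners of group III had 3 of 11 genes lower in WT (27.3%, against 12.5% of all genes) and none called in the knockout label (against 6.17% higher and 8.88% lower). Elfn2, a postsynaptic adhesion protein that binds group III receptors across the cleft, was at 29.1 ± 0.852 RPKM in WT controls and 24.0 ± 0.869 after CSDS (-0.28, limma, adjusted p = 0.000453). In the knockout label it was at 26.5 ± 2.79 and 23.5 ± 0.893 RPKM (-0.16, adjusted p = 0.135). Its relative Elfn1, the partner of Grm7 at synapses onto interneurons, was lower in WT (-0.20, adjusted p = 0.0139), as was the phosphatase subunit Ppp1cc (-0.10, adjusted p = 0.032). Of 7 genes for receptor desensitisation, Arrb1 (-0.09, limma, adjusted p = 0.0205) and Grk2 (-0.10, adjusted p = 0.0432) were lower in WT and none was called in the knockout label. The share lower in WT was 28.6%, against 12.5% of all genes, in a list of only 7.

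Supply and clearance of glutamate and of the group II agonist NAAG gave 3 of 18 genes lower in WT (16.7%, near the 12.5% of all genes). There 1 was higher (5.56%, against 9.88%), and in the knockout label 2 were higher (11.1%, against 6.17%). The mitochondrial aminotransferase Got2 was higher in both (0.11, limma, adjusted p = 0.0128, and 0.20, adjusted p = 0.00609). Its cytosolic relative Got1, named after its value was seen, was the other gene higher in the knockout label (0.09). Slc38a1, a glutamine carrier, was lower in WT (-0.11, adjusted p = 0.0269). Slc17a6, the vesicular glutamate transporter of mainly subcortical neurons, fell in WT from 6.03 ± 0.724 to 4.23 ± 0.576 RPKM (-0.47, adjusted p = 0.00801), and was at 4.66 ± 0.821 and 5.66 ± 1.01 RPKM in the knockout label (0.25, adjusted p = 0.243).

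**Figure D3:**
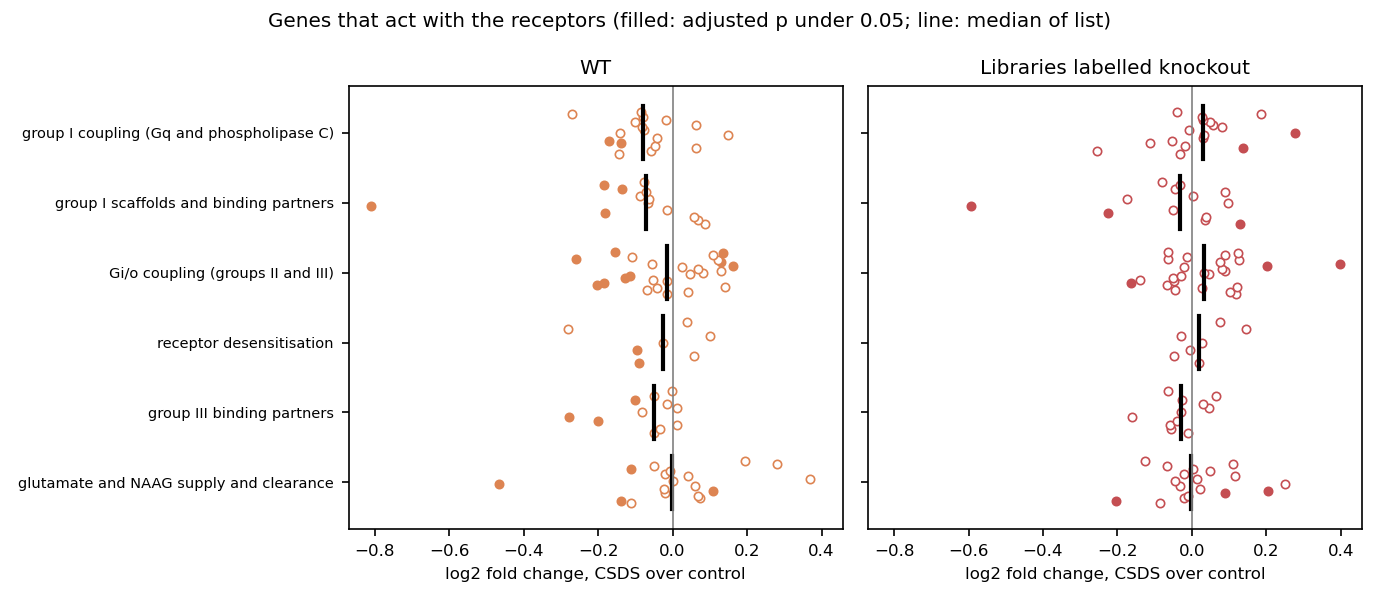
Log2 fold change after CSDS (horizontal axis) of the 91 genes that act with the receptors, by list, in WT (left) and in the libraries labelled knockout (right); filled points passed the test and the black bar is the median of the list. In WT 20 filled points lie below 0 and 4 above, and in the knockout label 4 lie below and 7 above; the farthest to the left in both panels is Homer1.

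Between genotypes, 4 of the 91 genes (4.4%, against 1.50% of all genes) were lower in the knockout label among controls and 0 higher (against 2.45%). They were Plcb4 (-0.27), Shank1 (-0.24), Gng3 (-0.29) and Ppp1cc (-0.15). After CSDS, Arrb1 (0.15) and Got1 (0.13) were higher, 2.2% where all genes gave 1.51%, and Gng3 (-0.25) lower, 1.1% against 0.734%. Shank1, Gng3 and Got1 were named after their values were seen.

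Some markers of neighbouring tissue also differed between groups. A list of 8 thalamic genes summed to 36.1 to 46.7 RPKM in WT controls (median 43.5), 37.7 to 44.5 in WT CSDS (39.7), 31.5 to 35.5 in knockout-labelled controls (34.1) and 34.6 to 52.0 after CSDS (39.6). All 5 knockout-labelled controls lay below all 5 WT controls, as they did for Grm4. Its most abundant gene was Calb2 (19.4 to 26.1 RPKM over the group means), which mossy cells of the hippocampus also express. The gap between the control groups lay mostly in Calb2 (26.1 in WT, 19.4 in the knockout label) and Prkcd. Ramp3 (2.22 and 2.13), Rora (3.21 and 3.03) and Lef1 (0.547 and 0.533) also had lower means in the knockout label. Plekhg1 (3.03 and 3.15) and Synpo2 (0.641 and 0.671) were not lower in the knockout label, nor was Tcf7l2. None of the 6 thalamic genes tested was called between the control groups. Tcf7l2, a defining thalamic factor, averaged 0.381, 0.507, 0.405 and 0.382 RPKM in the same order of groups. Prkcd averaged 6.71, 5.88, 4.44 and 6.91 RPKM and was the 1 thalamic gene called higher after CSDS in the knockout label (0.59, limma, adjusted p = 0.00448), while Ramp3 was the 1 called in WT (0.22, higher, adjusted p = 0.0219). The part of these markers in the Grm4 and Grm8 values was not tested.

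**Figure D4:**
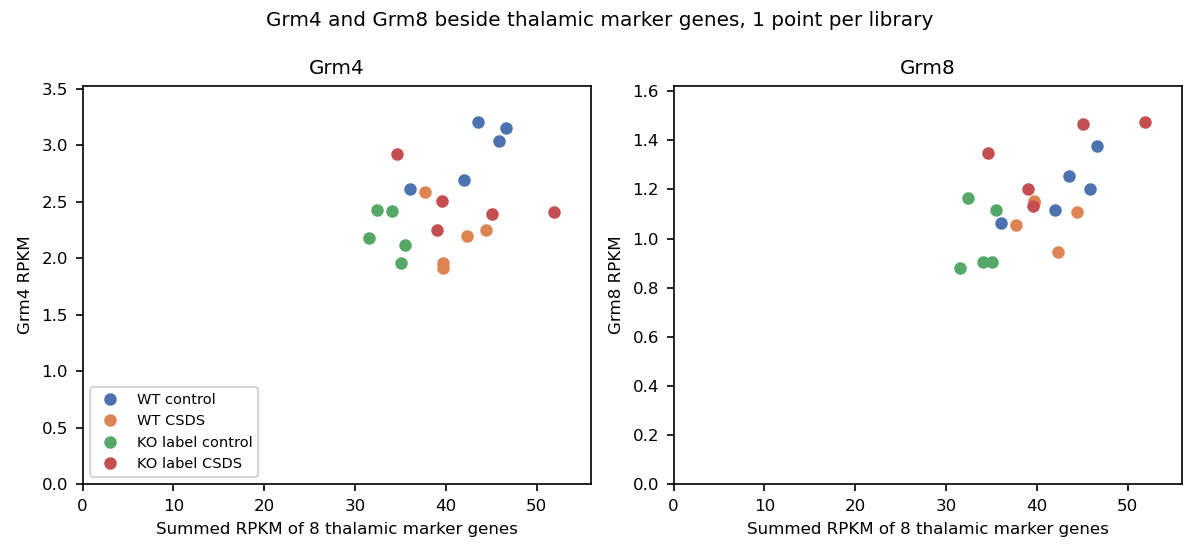
Grm4 (left) and Grm8 (right) in RPKM against the summed RPKM of 8 thalamic marker genes, 1 point per library, coloured by group. The knockout-labelled controls sit at the low end of the horizontal axis, 31.5 to 35.5, and the highest sum, 52.0, belongs to a knockout-labelled CSDS library whose Grm8 was 1.47 and whose Grm4 was 2.40. Knockout-labelled CSDS library 1 has a sum of 34.6, within the range of those controls, with Grm8 at 1.35 and the highest Grm4 of its group, 2.92.

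Other lists also moved with CSDS. Over all genes 9.88% were called higher and 12.5% lower in WT, and 6.17% higher and 8.88% lower in the knockout label. Striatal and septal markers had 3 of 8 genes higher in the knockout label (Penk, Trpc4, Zic1). Their sums were 46.3 to 59.4 RPKM in those controls and 56.9 to 65.3 after CSDS, and Ppp1r1b of that list had a lower mean, not called. Penk was called higher in WT too (0.54, limma, adjusted p = 0.0488). Interneuron markers had 4 of 10 higher in the knockout label (Gad1, Gad2, Slc32a1, Npy). Cck, Erbb4, Lhx6, Vip and Pvalb had lower means there, none called, and the median log2 fold change of the interneuron list was 0.015. Oligodendrocyte precursor markers had 3 of 6 higher in WT (Pdgfra, Cspg4, Vcan), with sums of 33.1 to 35.9 RPKM in controls and 32.2 to 40.1 after CSDS. Gpr17 and Olig2 of that list had lower means, not called. All 7 markers of meninges and vessels were lower in the knockout label, and all 5 of red blood cells were higher in WT, with sums of 206 to 297 RPKM in controls and 559 to 2810 after CSDS. Immediate early genes, which follow recent neuronal activity, had 5 of 7 lower in WT (Fos, Fosb, Arc, Junb, Nr4a1) and 3 of 7 lower in the knockout label (Fos, Fosb, Junb). For CA1 pyramidal cells 0 of 6 markers were called in either genotype. The part of these lists in the receptor values was not tested.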

How the data were processed

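The authors deposited one table per genotype with RPKM for each library, and alignment with STAR to mm10 is named in the submitters' processing notes; its version, the gene annotation and the counter are not stated in the sources used here. Per the labels' protocols, libraries were poly(A), 75 bp single-end and made with a TruSeq kit that does not mark strand. Beside these, per the file headers, stand the authors' log2 fold changes and mean log2 abundance from edgeR, with the likelihood ratio as a score, a p-value and a false discovery rate. Their fold changes are control over CSDS and are given here with the sign turned. The mean log2 abundance was identical in both tables for all 17840 genes the authors tested, so RPKM were compared across tables. Depth was estimated from the steps of low RPKM values in 11572 single-exon genes, where 95.3 to 96.4% of values lay within 0.05 of a whole read. In multi-exon genes that share was 77.1 to 80.3%, so read numbers per gene are approximate.

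Values were tested as log2(RPKM + 0.5) with limma 3.58.1 (R 4.3.3; empirical Bayes with a trend), for genes with a mean of at least 0.5 RPKM, 2-sided, Benjamini-Hochberg adjusted over all genes tested. On this scale the change of low genes is understated. Each CSDS effect was fitted on that genotype's 10 libraries, and the 3 comparisons across genotypes on all 20. The genotype check of Nrsn2 used 100000 resamples. Of 37693 gene identifiers found in GENCODE M21, 99.9% had the deposited coordinates. The alternatives were pseudocounts of 0.1 and 1, no filter, centring, array weights, 1 shared fit, a replicate block, the contradictory libraries on either side, and each library left out.

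The members and gene lists were chosen with earlier results of these data known, and no list gives independent support. Named were all members, of each pathway list at most the 4 genes of smallest p among those called in either CSDS comparison, and the 3 genes most like each member. A gene that this rule takes is not reported here.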

Additional observations from a re-analysis of the deposited data

How the results depend on the processing

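Most values under alternative settings belong to results not called in the main fit, so their pooled count does not measure how stable the calls were. The call of Grm8 in the knockout label was lost with 6 of 10 single libraries left out and in 2 of 8 other settings. Of 738 single-gene values under alternative settings, 699 kept their direction and their side of the threshold, 11 lost a call, 18 gained one and 10 changed sign, none of them called in either setting. These were Grm3 for CSDS in the knockout label (0.0156 with the contradictory libraries as CSDS, and -0.0555 to 0.0121 with single libraries left out, above 0 without CSDS library 4), and Grm5 and Grm7 among controls. Grm5 was 0.00265 with array weights, 0.00114 with the contradictory libraries as controls, 0.0191 without control 10 of both genotypes and 0.0326 without that of the knockout label (-0.0436 to 0.0326 over single libraries left out). Grm7 was 0.0236, 0.00709 and 0.0187 in the last 3 of these and 0.0004 without WT control 8 (-0.0259 to 0.0187 over single libraries left out). With the contradictory libraries counted as CSDS, 1240 genes were called in WT (1 member lower), 143 in the knockout label (0 members higher), 1 for the difference and 399 among controls. Counted as controls, they gave 98 for the difference and 1627 among controls, and in the knockout label 2 members higher and 2 lower. For the knockout label, centring gave 2 members higher, no filter 0 higher, and array weights or the fit on all 20 libraries 2 lower. Centring gave 480 genes among controls. Array weights gave 172 genes and 1 member higher for the difference and 728 genes after CSDS. Without control 10 of both genotypes, the difference had 181 genes and 2 members higher, and 629 genes were called after CSDS. Leaving out 1 library gave 1658 to 3668 genes in the knockout label (lowest without CSDS library 4), with 0 to 2 members higher and 0 to 2 lower. It gave 16 to 244 genes for the difference (244 without WT control 10, 68 without WT control 8, 16 without WT control 9 and 17 without knockout-labelled CSDS library 1) with 0 to 1 members higher. It gave 368 to 890 genes among controls and 245 to 586 after CSDS. The causes were not tested.

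With the library number as a replicate block, 45 genes and 0 members lower were called among controls and 162 genes after CSDS. Same-numbered WT and knockout-labelled libraries correlated from -0.107 to 0.371 in their deviations, and 4 of 10 matched their own number best, so the numbers were not taken to pair them. Grm8 and Grm4 rest on the fewest reads, an estimated 231 to 688 and 302 to 920 per library.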

Other observations

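The 3 libraries of contradictory label (WT 9B, knockout-labelled 10B and 11) belong to no group. In that order Grm5 was at 34.5, 33.6 and 37.9 RPKM and Grm7 at 9.92, 10.7 and 11.0 RPKM. Grm4 was at 2.91, 2.82 and 2.59 RPKM. Grm2 was at 13.4, 14.9 and 13.7 RPKM, Grm3 at 14.2, 14.9 and 14.1 RPKM, and Grm8 at 1.12, 1.09 and 0.998 RPKM. Xist was 0.025, 1.45 and 1.60 RPKM in them, so the knockout-labelled pair lay between the low and the high libraries of the 4 groups.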
